A study of Homo sapiens with 24 samples.

Results

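Cultures of HB2, a human line of mammary epithelium grown with insulin and hydrocortisone, were transfected with 50 nM siRNA and harvested 48 h later. The 24 Illumina bead arrays held 6 arrays of a commercial control siRNA and 18 arrays of siRNAs against the long noncoding RNA GNG12-AS1, 6 each against its exons 1, 7 and 9. Here the 3 siRNAs were pooled: within each of 6 experiments, numbered 1, 3, 5, 7, 9 and 11 in the sample titles, the mean of the 3 siRNA arrays was set against the control siRNA array of the same experiment. All 24 arrays of the series entered, 4 per experiment, and each gene had 6 paired differences. The comparison answers which genes stood higher or lower in the mean of the 3 siRNAs than under the control siRNA, which need not mean under each of them. All 24 cultures carried an siRNA and the transfection reagent. A change made by the 3 siRNAs in common and an opposite change made by the control siRNA therefore cannot be told apart.

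An siRNA is loaded into an Argonaute protein and guides it to complementary RNA, which is cut. GNG12-AS1 is transcribed antisense to GNG12, next to the imprinted tumour suppressor gene DIRAS3. Pooling siRNAs against different exons asks what is seen on average over them, and not what is seen whichever exon is hit. Cells also carry sensors of double-stranded RNA, whose best-known output is the interferon-stimulated genes, a set of antiviral genes switched on by STAT and IRF factors.

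The arrays were alike in signal. Before normalization the median log2 signal ran from 7.41 to 7.75 and the share of probes brighter than background from 34.2% to 39.5%. A gene was represented by its brightest detected probe, and 11029 genes were tested. Probe signals are not molecules per length, so levels are compared between arrays and never between genes. GNG12-AS1 had 0 probes by name, so the loss of the target could not be checked. Both probes of DIRAS3 were dim (1 passed background on 5 arrays, the other on 0), and it was not tested. Of 10 mammary epithelial markers with a probe, 8 were above background on every array (KRT5, KRT7, KRT8, KRT18, KRT19, EPCAM, CDH1 and CDH3), 1 (ITGA6) on 4 arrays and 1 (KRT14) on 0. Of the markers of other cell types, 0 of 6 endothelial, 0 of 4 adipocyte, 1 of 8 fibroblast (THY1) and 1 of 6 immune markers (CD14) were above background on every array, while 4, 2, 2 and 4 of them were on 0 arrays. In between lay LEP on 21 arrays, COL1A1 on 16, COL1A2 on 15, DCN on 8, ADIPOQ and PECAM1 on 6 each, LUM and MS4A1 on 4 each, TEK on 3 and COL3A1 on 1. The mean level of the fibroblast markers was 6.66 to 6.80 on control and 6.56 to 6.98 on siRNA arrays, that of the immune markers 6.53 to 6.69 and 6.40 to 6.56. PTPRC, CD3D, CD3E and LYZ were above background on 0 arrays.

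Pooled over the 3 siRNAs, 535 genes differed from the control siRNA (limma on the 6 differences, Benjamini-Hochberg adjusted p below 0.05), which is 4.85% of those tested. The changes were mostly small: 295 genes rose (2.67%) and 240 fell (2.18%), with a median log2 change of 0.39 among the rises and -0.35 among the falls. Only rises reached 2-fold: 7 genes did so, and 0 falls did. At 1.5-fold the counts were 52 rises and 14 falls. In bulk RNA fewer cells with a transcript and less of it per cell cannot be told apart. Of the 535 genes 524 had 6 differences of 1 sign, against 14.3% of all genes. The pooled test used the same 6 differences and favours genes with 1 sign, so this is not separate support. The median change of all genes was -0.00412. Leaving out experiment 7 changed the count little, to 497, but only 388 of these were among the 535. Leaving out any other experiment lowered the count strongly. It was 233 without experiment 1, 179 without experiment 3, 266 without experiment 5, 261 without experiment 9 and 241 without experiment 11. Without the exon 1 siRNA 348 genes passed, without exon 7 866 and without exon 9 583. Of these, 274, 491 and 413 in turn were among the 535.

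A stricter view keeps genes whose 18 siRNA arrays all lay on 1 side of all 6 control arrays. This held for 49 genes (0.444% of those tested): 43 higher (0.39%) and 6 lower (0.0544%), and all 49 passed the pooled test. With median scaling in place of quantile normalization the counts were 32 and 1. Of the 49 genes, 36 (32 higher and 4 lower) also showed no difference among the 3 siRNAs that passed a limma F test on the 18 siRNA arrays, a test that does not use the control arrays. Over all 11029 genes that F test called 2518 (22.8%), and over the 535 it called 269 (50.3%), with 139 of the rises and 130 of the falls. A gene can thus differ from control in the pool because 1 siRNA moved it far. Among the 535 genes the exon 1 siRNA gave the largest change of the 3 for 315, the exon 9 siRNA for 150 and the exon 7 siRNA for 70. Over all genes these numbers were 4816, 3360 and 2853. On its own against control the exon 1 siRNA changed 2062 genes (18.7%), the exon 7 siRNA 580 (5.26%) and the exon 9 siRNA 1019 (9.24%), comparisons that share the control arrays with the pooled one.

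**Figure D1:**
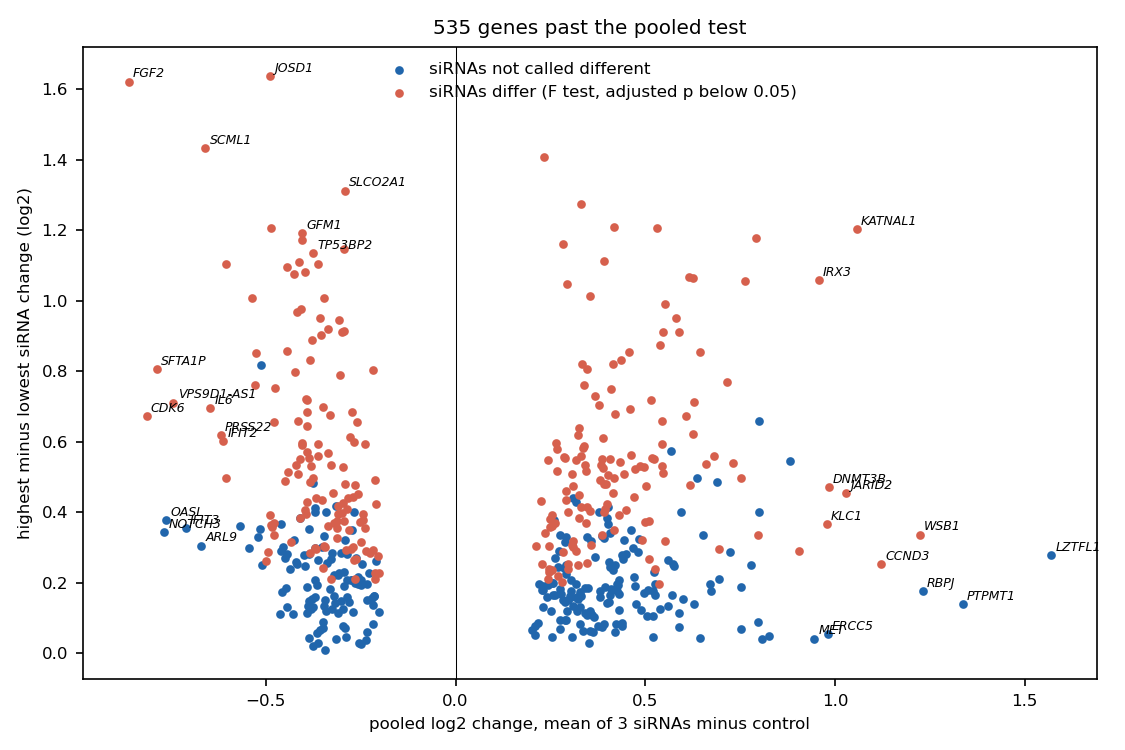
Each point is 1 of the 535 genes past the pooled test. The horizontal axis is the pooled log2 change and the vertical axis the highest minus the lowest of the 3 siRNA changes (log2). Blue points are genes for which the F test among siRNAs did not pass, red points the 269 for which it did; the largest rises (LZTFL1, PTPMT1, RBPJ) lie low, while FGF2 and JOSD1 lie above 1.5.

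The largest common change was the rise of LZTFL1, which regulates the traffic of membrane proteins into cilia. Its level was 5.59 to 6.73 (median 6.40, log2) on the 6 control arrays and 7.26 to 8.34 (median 7.87) on the 18 siRNA arrays. The groups did not overlap, and only 4 of 6 control arrays were above background. The paired differences ran from 1.47 to 1.83, a pooled rise of 1.57 ± 0.0617 (SE, n = 6 experiments; 2.97-fold, adjusted p = 3.42e-05), with 1.72, 1.44 and 1.54 under the exon 1, exon 7 and exon 9 siRNAs. PTPMT1, a mitochondrial phosphatase of cardiolipin synthesis, was next. It stood at 10.4 to 11.5 (median 10.9) on control arrays and at 12.01 to 12.3 (median 12.2) on siRNA arrays. The control arrays were spread over a log2 unit while the 18 siRNA arrays lay close together above them. The rise was 1.34 ± 0.112 (adjusted p = 0.00108), and the siRNAs gave 1.25, 1.39 and 1.37. RBPJ, the DNA-binding partner of cleaved Notch receptors, lay at 6.60 to 7.31 (median 7.03) on control arrays and at 7.92 to 8.53 (median 8.22) on siRNA arrays. Its groups too were apart, with a rise of 1.23 ± 0.0939 (adjusted p = 0.000964) and 1.22, 1.33 and 1.15 by siRNA. Of its other probes 2 were dim, above background on 4 and on 0 arrays, and gave 0.12 and 0.16.

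WSB1, the substrate-binding part of a ubiquitin ligase, ran from 8.11 to 8.97 (median 8.46) on control arrays and from 9.39 to 10.5 (median 9.74) on siRNA arrays. No siRNA array reached down to a control array, although the experiments differed more than for the genes above, from 0.55 to 1.81. The rise was 1.22 ± 0.157 (adjusted p = 0.00641; 1.35 on its other probe). CCND3, the D3 cyclin that activates CDK4 and CDK6, lay at 10.9 to 11.6 (median 11.2) on control arrays and at 12.1 to 12.6 (median 12.2) on siRNA arrays. The rise was 1.12 ± 0.107 (adjusted p = 0.00176), a little larger under exon 1 (1.28) than under exon 7 (1.06) and exon 9 (1.03), a difference that passed the F test (adjusted p = 0.0269). The same was so for WSB1, at 1.43, 1.10 and 1.14 (adjusted p = 0.0171).

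MET, the receptor tyrosine kinase for hepatocyte growth factor, stood at 9.51 to 10.0 (median 9.70) on control arrays and at 10.4 to 11.004 (median 10.6) on siRNA arrays. Every siRNA array was above every control array. The rise was 0.95 ± 0.107 (1.93-fold, adjusted p = 0.00397), with 0.94, 0.97 and 0.93 by siRNA (F test adjusted p = 0.957). Of 22 measured genes of MET signalling 1 rose (MET) and 1 fell (9.09% called, against 4.85% of all genes). The fall was that of the exchange factor RAPGEF1 (-0.28 ± 0.0593, adjusted p = 0.0375). RAPGEF1 lost its call without experiment 1, 3, 7, 9 or 11 (adjusted p from 0.0745 to 0.120), and its second probe gave 0.09. The list's median was 0.06. MAP2K4, a kinase that activates JNK and p38, lay at 8.58 to 8.98 (median 8.72) on control arrays and at 9.28 to 9.75 (median 9.56) on siRNA arrays. It rose by 0.83 ± 0.0641 (adjusted p = 0.000964; 0.74 on a second probe), in steps of 0.85, 0.80 and 0.83. SRPRA, the subunit of the receptor that docks signal recognition particles at the endoplasmic reticulum, lay at 9.45 to 9.85 (median 9.55) and 10.1 to 10.5 (median 10.5). Its rise was 0.81 ± 0.0737 (adjusted p = 0.00155), at 0.78, 0.82 and 0.82 by siRNA. These 8 genes were chosen as the non-overlapping rises with the largest smallest change over the siRNAs. They kept their calls without any 1 experiment, without any 1 siRNA and within each of the 2 column sets of the table. That choice, made on the same arrays, favours such calls, so keeping them is not separate support.

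**Figure D2:**
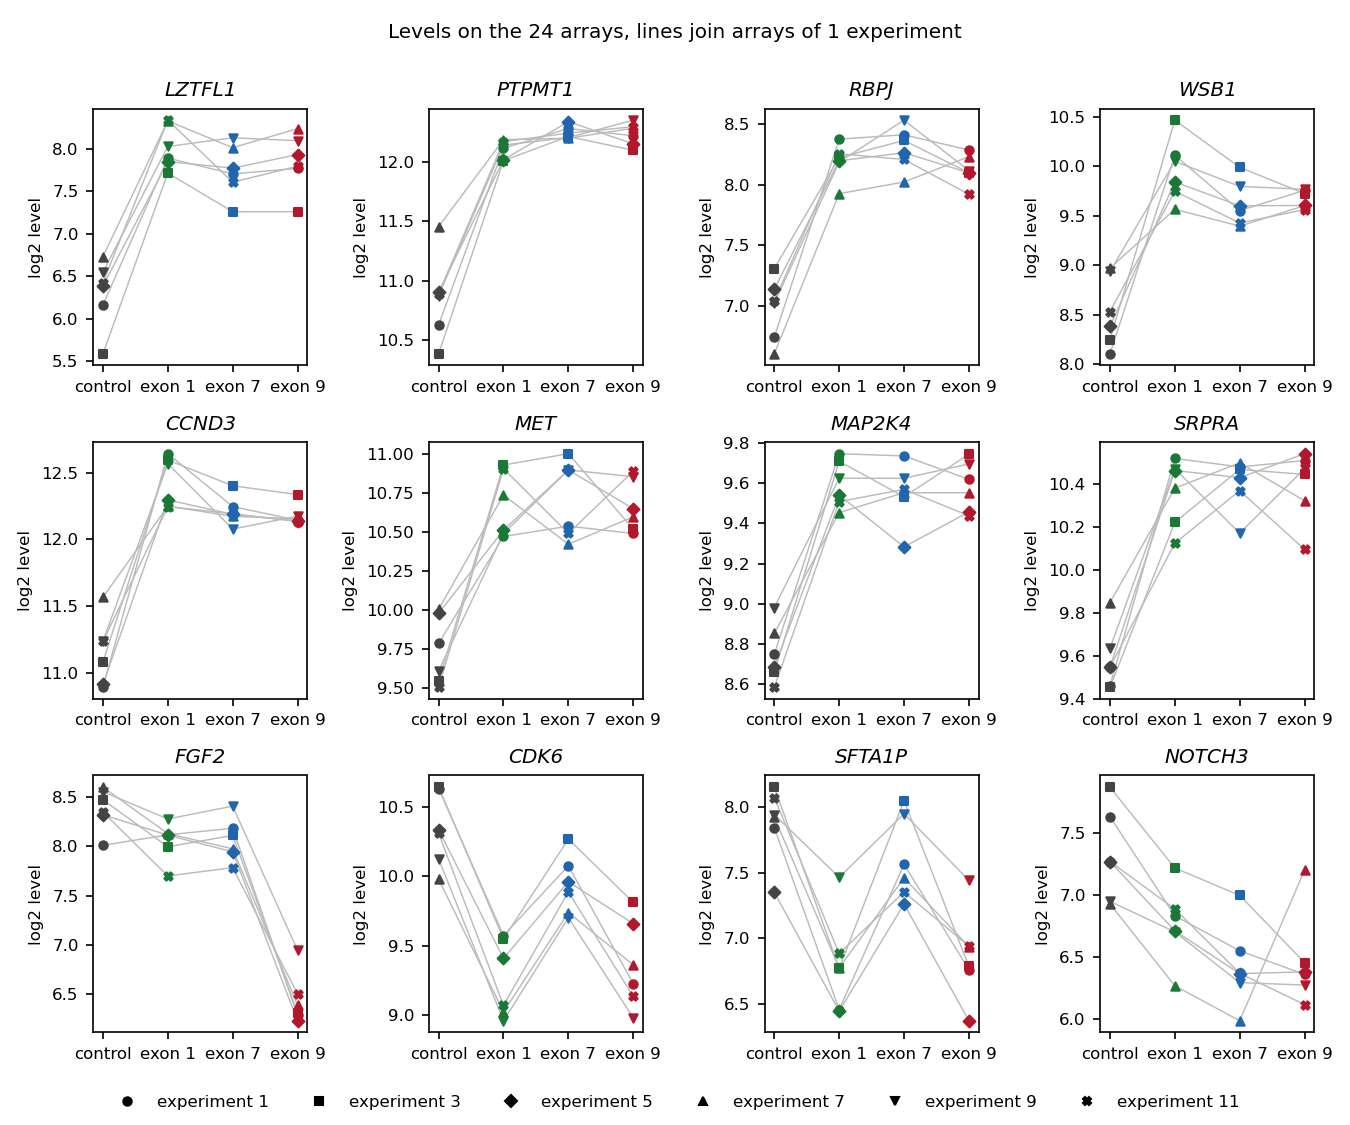
Normalized log2 level (vertical axis) on each of the 24 arrays by siRNA (horizontal axis) for the 8 even rises (upper rows) and the 4 largest falls (bottom row); symbols mark the experiment and grey lines join its arrays. In the upper 8 panels every siRNA array lies above every control array, while FGF2 falls far only under exon 9 and CDK6 and SFTA1P fall less under exon 7.

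The promoters of 2 of these genes are shown for CACGTG, the E-box bound by MYC and USF family factors, which was picked from 11 motifs searched after the counts were seen. It stood in 7 of 36 non-overlapping rises with a promoter sequence (19.4%), against 10.3% of the 8874 promoters of tested genes and 8.26% of all called rises, a share below the background. Another of the 11, an E2F-type motif, stood in 2 of the 36 (5.56%) against 1.14% of all promoters. Sequences are from RefSeq, build GRCh38.p14, 250 bases before to 50 after the start, for LZTFL1 (chr3:45842070-45842369, minus strand) and MET (chr7:116671946-116672245, plus strand), with CACGTG in capitals. CACGTG reads the same on both strands. A match is a description and does not show that a factor binds.
LZTFL1: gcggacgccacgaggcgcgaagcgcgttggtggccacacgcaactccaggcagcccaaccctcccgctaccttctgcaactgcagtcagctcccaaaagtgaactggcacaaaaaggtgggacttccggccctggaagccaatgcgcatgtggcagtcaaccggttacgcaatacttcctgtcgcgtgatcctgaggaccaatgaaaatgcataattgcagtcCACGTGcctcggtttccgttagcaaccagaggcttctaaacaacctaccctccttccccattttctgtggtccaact
MET: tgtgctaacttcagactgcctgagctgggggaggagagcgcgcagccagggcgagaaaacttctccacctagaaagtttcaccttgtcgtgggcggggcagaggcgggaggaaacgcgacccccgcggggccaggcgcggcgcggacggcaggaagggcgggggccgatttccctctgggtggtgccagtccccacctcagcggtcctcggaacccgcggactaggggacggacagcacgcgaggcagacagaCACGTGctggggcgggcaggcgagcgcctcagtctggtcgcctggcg

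Of the 12 largest rises, 6 more were not among the 8 above. JARID2, a cofactor of the Polycomb complex PRC2, stood at 7.24 to 7.57 (median 7.51) on control arrays and at 8.06 to 8.95 (median 8.50) on siRNA arrays, without overlap. It rose by 1.03 ± 0.0825 (adjusted p = 0.00104), at 1.23, 0.77 and 1.08 by siRNA. DNMT3B, which places new DNA methylation, was at 6.32 to 6.90 (median 6.55) and 6.90 to 8.003 (median 7.62), and its lowest siRNA array met the highest control array. Its rise was 0.98 ± 0.0745 (adjusted p = 0.000964), with 0.57 and 0.39 on other kept probes. These 2 and CBX2 (0.51 ± 0.0959, adjusted p = 0.0237) were the rises among 28 measured DNA methyltransferases and Polycomb factors, of which 1 fell, CBX6 (-0.37 ± 0.0635, adjusted p = 0.0176). The list's median was 0.01, and 14.3% of its measured genes were called, against 4.85% of all genes. CBX6 lost its call without experiment 3, 5, 9 or 11 (adjusted p from 0.0516 to 0.0688).

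KLC1, a light chain of the motor kinesin-1, rose by 0.98 ± 0.0814 (adjusted p = 0.00108; 0.44 on a second probe) with no overlap, from 8.61 to 9.30 (median 9.06) on control arrays to 9.47 to 10.3 (median 10.0). ERCC5, the endonuclease XPG of nucleotide excision repair, rose by the same 0.98 ± 0.119 (adjusted p = 0.00526) and was even by siRNA (1.01, 0.96 and 0.97), but its control arrays were spread from 7.25 to 8.51 (median 7.89) and met the lowest of the siRNA arrays (8.45 to 9.12, median 8.89). The control level of KATNAL1, a microtubule-severing ATPase, was 6.26 to 7.64 (median 6.65), and the siRNA level was 6.88 to 8.90 (median 7.61). Its groups overlapped because the control of experiment 3 was high. KATNAL1 rose by 1.06 ± 0.0803 (adjusted p = 0.000964), at 1.74, 0.89 and 0.54 by siRNA. IRX3, a homeobox transcription factor, rose by 0.96 ± 0.0697 (adjusted p = 0.000964), at 1.35 and 1.24 under exons 1 and 9 but 0.29 under exon 7. Its arrays overlapped, 6.61 to 8.08 (median 7.64) on control and 6.54 to 9.51 (median 8.35) on siRNA arrays. The 12 largest rises all kept their calls with any 1 experiment left out, with any 1 siRNA left out and with a minimum fold change of 1.2 in the test. They were picked by size on the same arrays, which favours these calls. In each column set alone 10 of the 12 kept their calls. KATNAL1 (adjusted p = 0.122) and IRX3 (0.0788) were lost in the first set, and ERCC5 (0.0828) and IRX3 (0.613) in the last.

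Further non-overlapping rises, named after their values were seen, spanned many cell functions. In the secretory pathway these were PDIA4, a disulfide isomerase (0.75 ± 0.0638, adjusted p = 0.00114), the cargo receptor subunit MCFD2 (0.75), the calcium-binding protein CALU (0.69), the site-1 protease MBTPS1 (0.49), the convertase PCSK7 (0.52) and TRAPPC2 (0.58). Of 28 measured genes of the unfolded protein and ATF4 response PDIA4 was the 1 that rose and 0 fell, with a median of 0.02. That was 3.57% called, against 4.85% of all genes. Cytoskeletal genes were the microtubule regulator STMN1 (0.59), the tubulin-tyrosine ligase TTL (0.54) and the actin-bundling FSCN1 (0.33). TOMM20, the import receptor of the mitochondrial outer membrane, rose by 0.70, NKIRAS1, a small RAS-like protein that binds the inhibitors of NF-kB and slows their degradation, by 0.80, the tyrosine phosphatase PTPN1 by 0.52 and the calcineurin subunit PPP3CB by 0.59. The variant histone gene H3-3A rose by 0.39 ± 0.0528 (adjusted p = 0.00826; 0.48 and 0.40 on other probes). H3P6, a histone H3 pseudogene, rose by 0.43, and whether its probe also reads H3-3A was not tested.

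**Figure D3:**
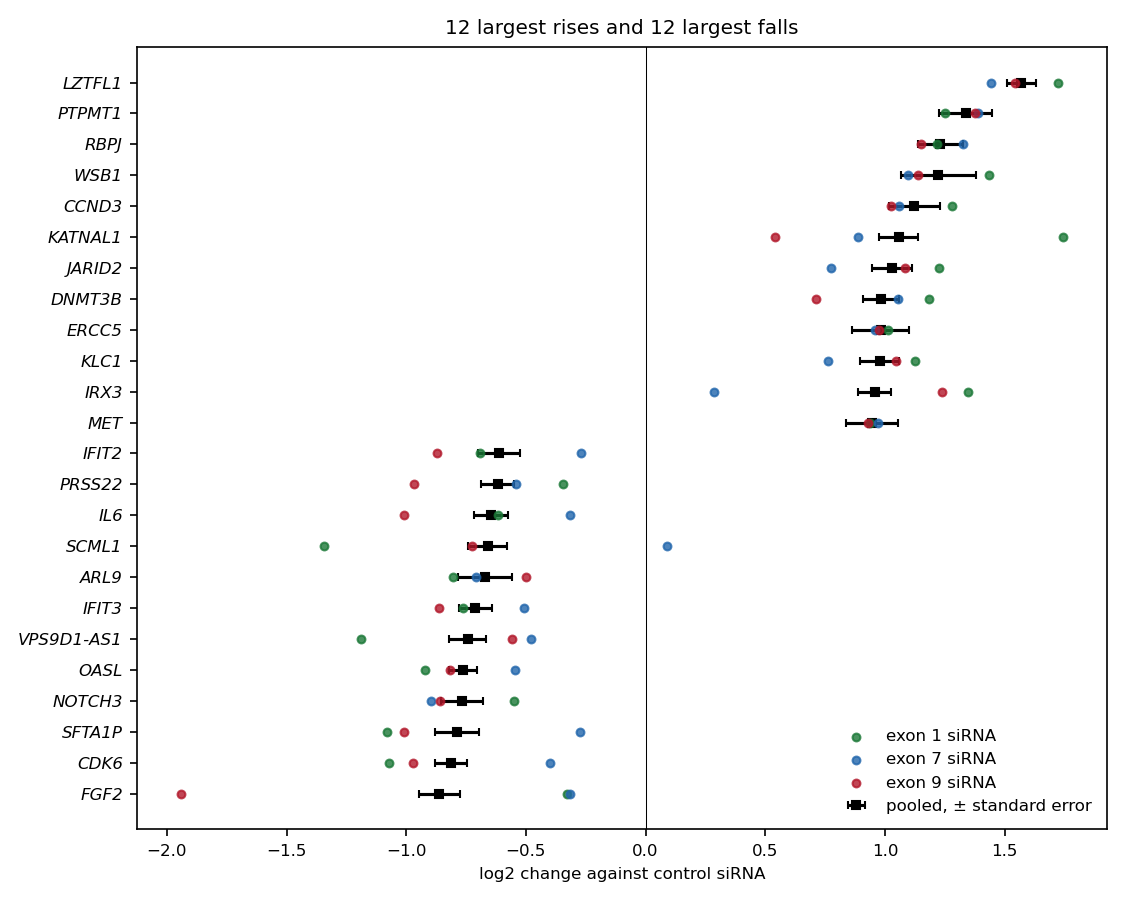
Log2 change against the control siRNA (horizontal axis) for the 12 largest rises and 12 largest falls (rows). Black squares are the pooled change with its standard error over 6 experiments, and coloured points the own change of each siRNA; MET and ERCC5 have 3 near-identical points, whereas FGF2 and SCML1 have points more than 1 log2 unit apart.

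The falls were smaller and less even. Of the 12 largest falls 5 kept their calls with a minimum fold change of 1.2 in the test. In the first column set alone 3 of the 12 did so, and in the last 1. The largest fall was that of FGF2, a fibroblast growth factor. It stood at 8.01 to 8.60 (median 8.41) on control and at 6.23 to 8.41 (median 7.96) on siRNA arrays, and the low arrays were those of the exon 9 siRNA. The pooled fall was -0.86 ± 0.0862 (1.82-fold, adjusted p = 0.00220), made up of -0.33, -0.32 and -1.94. Without the exon 9 siRNA it did not pass (adjusted p = 0.0973), and a second probe, above background on 11 arrays, gave -0.10. CDK6, a kinase that pairs with D cyclins in G1, was at 9.98 to 10.6 (median 10.3) on control and 8.96 to 10.3 (median 9.56) on siRNA arrays, which overlapped through exon 7. It fell by 0.81 on the log2 scale (SE 0.0672, adjusted p = 0.00108), at -1.07, -0.40 and -0.97. NOTCH3, a Notch receptor, went from 6.93 to 7.87 (median 7.27) to 5.98 to 7.22 (median 6.41), with 11 of 18 siRNA arrays above background. Its arrays overlapped, its change was -0.77 ± 0.0876 (adjusted p = 0.00398), and the siRNAs gave -0.55, -0.89 and -0.86.

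Among the other large falls were 2 noncoding transcripts, SFTA1P (-0.79 ± 0.0917, adjusted p = 0.00441) and VPS9D1-AS1 (-0.74 ± 0.0777, adjusted p = 0.00260), both smallest under exon 7. The cytokine gene IL6 lay at 9.31 to 10.2 (median 9.90) on control and 8.35 to 9.85 (median 9.22) on siRNA arrays, with overlap. IL6 fell most under exon 9: the pooled value was -0.65 ± 0.0712 (adjusted p = 0.00350) and the siRNAs gave -0.62, -0.32 and -1.01. Of 22 measured NF-kB and inflammatory genes IL6 and the chemokine CCL5 fell and 0 rose (median -0.07). That was 9.09% called, against 4.85% of all genes. CCL5, at -0.49 ± 0.105 (adjusted p = 0.0375), lost its call without experiment 3, 5, 9 or 11 (adjusted p from 0.0695 to 0.0988), and its second probe gave -0.14. The serine protease PRSS22 (-0.62 ± 0.0697, adjusted p = 0.00395) lost its call in the fit without the experiment number (adjusted p = 0.130). SCML1, a relative of Polycomb proteins, changed by -0.66 ± 0.0814 (adjusted p = 0.00550), but by 0.09 under exon 7, and did not pass without the exon 1 siRNA (adjusted p = 0.142). A second SCML1 probe, above background on all 24 arrays, gave -0.21. With only probes detected on all 24 arrays SCML1 did not pass (adjusted p = 0.0980). ARL9, an ARF-like small GTPase, changed by -0.67 ± 0.113 (adjusted p = 0.0166) and did not pass without experiment 3 (adjusted p = 0.0611) or 11 (adjusted p = 0.0537).

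Only 6 falls had siRNA arrays that all lay below all control arrays. CTSC, the lysosomal dipeptidyl peptidase, was at 10.3 to 10.6 (median 10.4) on control and 9.43 to 10.2 (median 9.92) on siRNA arrays, a change of -0.49 ± 0.0667 (adjusted p = 0.00826). Its other probes disagreed, at -0.48, 0.08 and 0.19, and with probes averaged it did not pass (adjusted p = 0.123). HES4, a transcriptional repressor of the HES family, stood at 10.77 to 11.04 (median 10.9) and 10.1 to 10.76 (median 10.5), a change of -0.43 ± 0.0565 (adjusted p = 0.00693), deepest under exon 9. PNO1, an assembly factor of the small ribosomal subunit, changed by -0.34 ± 0.0452 (adjusted p = 0.00776) and by -0.41, -0.32 and -0.29 by siRNA. RIPK2, a kinase downstream of NOD receptors (-0.30), EPHX2, soluble epoxide hydrolase (-0.35), and CDC42EP1, an effector of the GTPase CDC42 (-0.23), were close to the threshold. RIPK2 lost its call without experiment 1, 3, 5, 9 or 11 (adjusted p from 0.0620 to 0.0962). So did EPHX2 (0.0797 to 0.132), and CDC42EP1 did without any 1 of the 6 experiments (0.0603 to 0.120). Of these 6 falls 0 kept their calls in either column set alone, and 0 with a minimum fold change of 1.2 in the test.

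Several genes passed the pooled test through 1 siRNA. The 5 with the smallest F-test p were JOSD1, FGF2, GFM1, SLCO2A1 and TP53BP2. JOSD1, a deubiquitinase, had a pooled change of -0.49 ± 0.0524 (adjusted p = 0.00294) that came from exon 7 alone: the siRNAs gave 0.04, -1.57 and 0.06, and without exon 7 the change was 0.05 (adjusted p = 0.594). GFM1, a mitochondrial elongation factor, changed by -0.41 ± 0.0580, at -1.08, -0.25 and 0.11, and did not pass without exon 1 (adjusted p = 0.588). SLCO2A1, a prostaglandin transporter, changed by -0.29 ± 0.0553, at -1.15, 0.16 and 0.11, and turned to 0.14 (adjusted p = 0.267) without exon 1. It also lost its call without experiment 1, 3, 7, 9 or 11 (adjusted p from 0.0533 to 0.0754). TP53BP2, a p53-binding protein, changed by -0.37 ± 0.0642, at 0.02, -0.04 and -1.11, with 0.08 on a second probe, and did not pass without exon 9 (adjusted p = 0.969) or without experiment 3, 9 or 11 (adjusted p from 0.0515 to 0.0595).

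**Figure D4:**
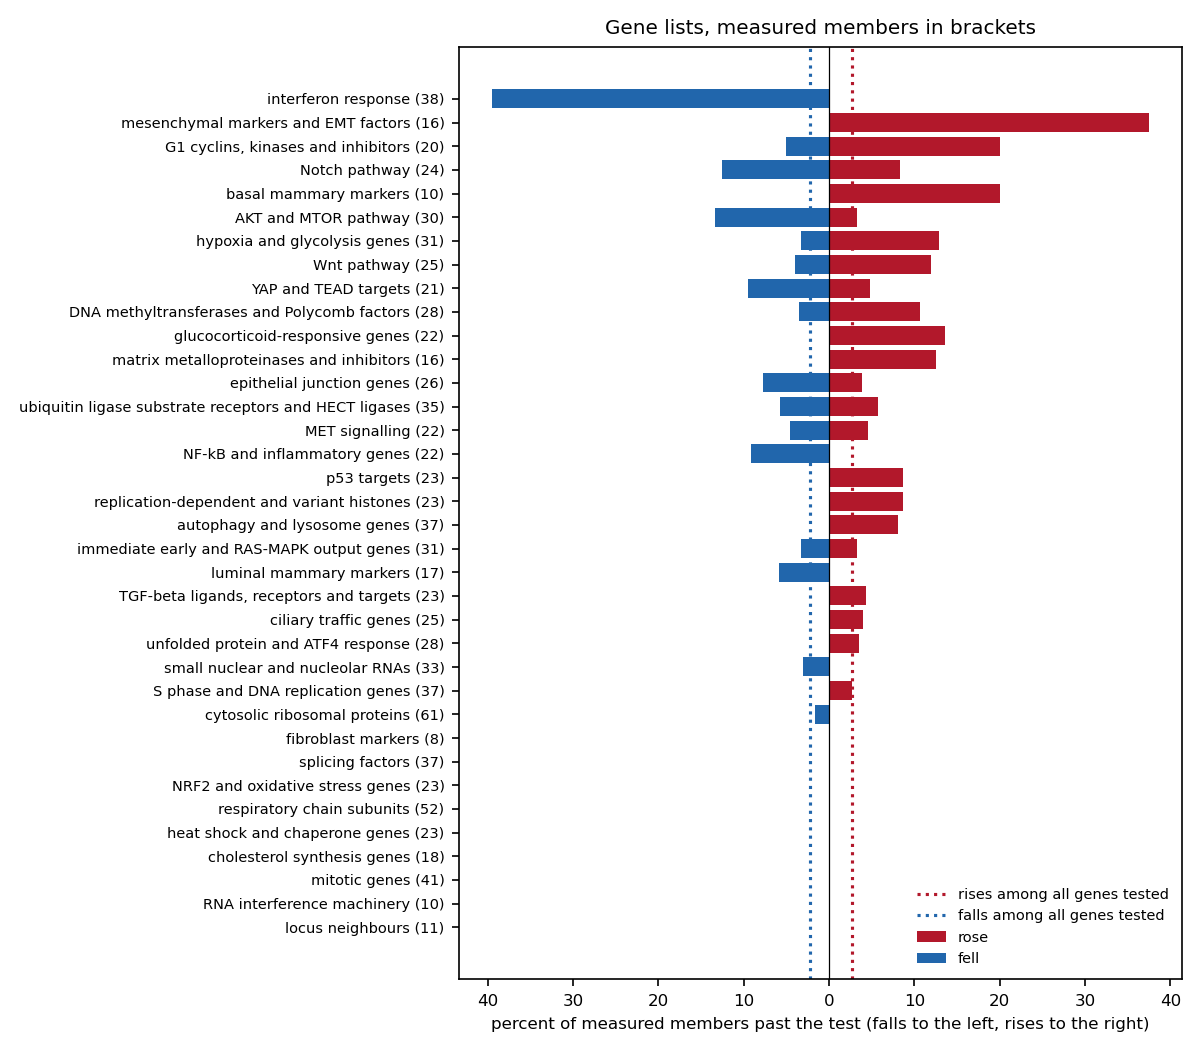
Percent of the measured members of each gene list that rose (red, to the right) or fell (blue, to the left), for lists with at least 8 measured members; dotted lines are the percentages among all genes tested, 2.67% and 2.18%. The interferon list reaches 39.5% to the left and the mesenchymal list 37.5% to the right, and 9 lists shown have no member past the test.

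The interferon-stimulated genes were lower under the siRNAs than under the control siRNA. Of 38 measured members 15 fell (39.5%) and 0 rose, against 2.18% of all genes that fell, and 37 of 38 had a pooled change below 0, with a median of -0.28 where all genes had -0.00412. Those that fell were OASL, IFIT3, IFIT2, IFITM1, IFI44, PARP14, ISG15, IFIT1, IFIH1, XAF1, EPSTI1, ISG20, HERC6, PSMB9 and IFI35. The falls were shallow: only OASL, IFIT3 and IFIT2 passed 1.5-fold. OASL, an oligoadenylate synthetase-like antiviral protein, lay at 8.43 to 9.75 (median 8.95) on control and 7.14 to 8.96 (median 8.33) on siRNA arrays. The groups overlapped, since levels differed between experiments, but each paired difference was below 0, from -0.96 to -0.59. The pooled value was -0.76 ± 0.0596 (1.70-fold, adjusted p = 0.000964; -0.51 on a second probe), at -0.92, -0.54 and -0.82 by siRNA.

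IFIT3, a member of the IFIT family that binds foreign RNA, was at 9.43 to 11.2 (median 9.77) on control and 8.51 to 10.5 (median 9.22) on siRNA arrays. Its differences ran from -0.89 to -0.40, with a pooled value of -0.71 ± 0.0691 (adjusted p = 0.00191; -0.55 and -0.65 on other probes). In the fit without the experiment number IFIT3 did not pass (adjusted p = 0.173). IFIT2, of the same family, was at 10.96 to 12.1 (median 11.2) and 9.95 to 11.5 (median 10.8), with a pooled value of -0.61 ± 0.0880 (adjusted p = 0.00969). For both genes the control of experiment 3 was the high one. ISG15, a ubiquitin-like modifier, changed by -0.40 ± 0.0624 (adjusted p = 0.0124), at -0.31, -0.31 and -0.58. IFIH1, the double-stranded RNA sensor MDA5, changed by -0.37 ± 0.0634 (adjusted p = 0.0172), at -0.36, -0.23 and -0.52. Of the 15 genes 7 kept their calls with any 1 experiment left out: OASL, IFIT3, IFIT2, IFI44, IFIT1, ISG15 and EPSTI1. MX1 (-0.28), OAS2 (-0.43), RSAD2 (-0.04) and GBP1 (0.01) were among the 23 that did not pass.

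Taken over the 38 genes, the median difference was below 0 in every experiment: -0.256 in experiment 1, -0.334 in experiment 3, -0.199 in experiment 5, -0.408 in experiment 7, -0.198 in experiment 9 and -0.259 in experiment 11. Between 29 and 38 of the 38 genes were lower than control in each. The level itself differed between experiments: the mean over the 38 genes on control arrays was 9.11 to 9.74 in 5 experiments and 10.39 in experiment 3, and experiment 3 was also the highest under each of the 3 siRNAs (10.1, 10.12 and 9.921). By siRNA the list's median change was -0.209 under exon 1, -0.168 under exon 7 and -0.396 under exon 9. The call count leans on the pairing and on the number of experiments. It was 9, 7, 12, 12, 10 and 9 without experiments 1, 3, 5, 7, 9 and 11, 10 without the exon 9 siRNA, 2 in the fit without the experiment number and 0 in each column set alone, while the median stayed between -0.33 and -0.18 over these settings. The mean level of the immune markers ran from 6.40 to 6.56 on siRNA and from 6.53 to 6.69 on control arrays, overlapping a little. Of these markers only CD14 was above background on every array, and its pooled change was -0.61 (limma adjusted p = 0.00176). PTPRC, CD3D, CD3E and LYZ were above background on 0 arrays and MS4A1 on 4. The part of this mean level in the result was not tested. A rise of these genes under the control siRNA cannot be told apart from a fall under the others.

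**Figure D5:**
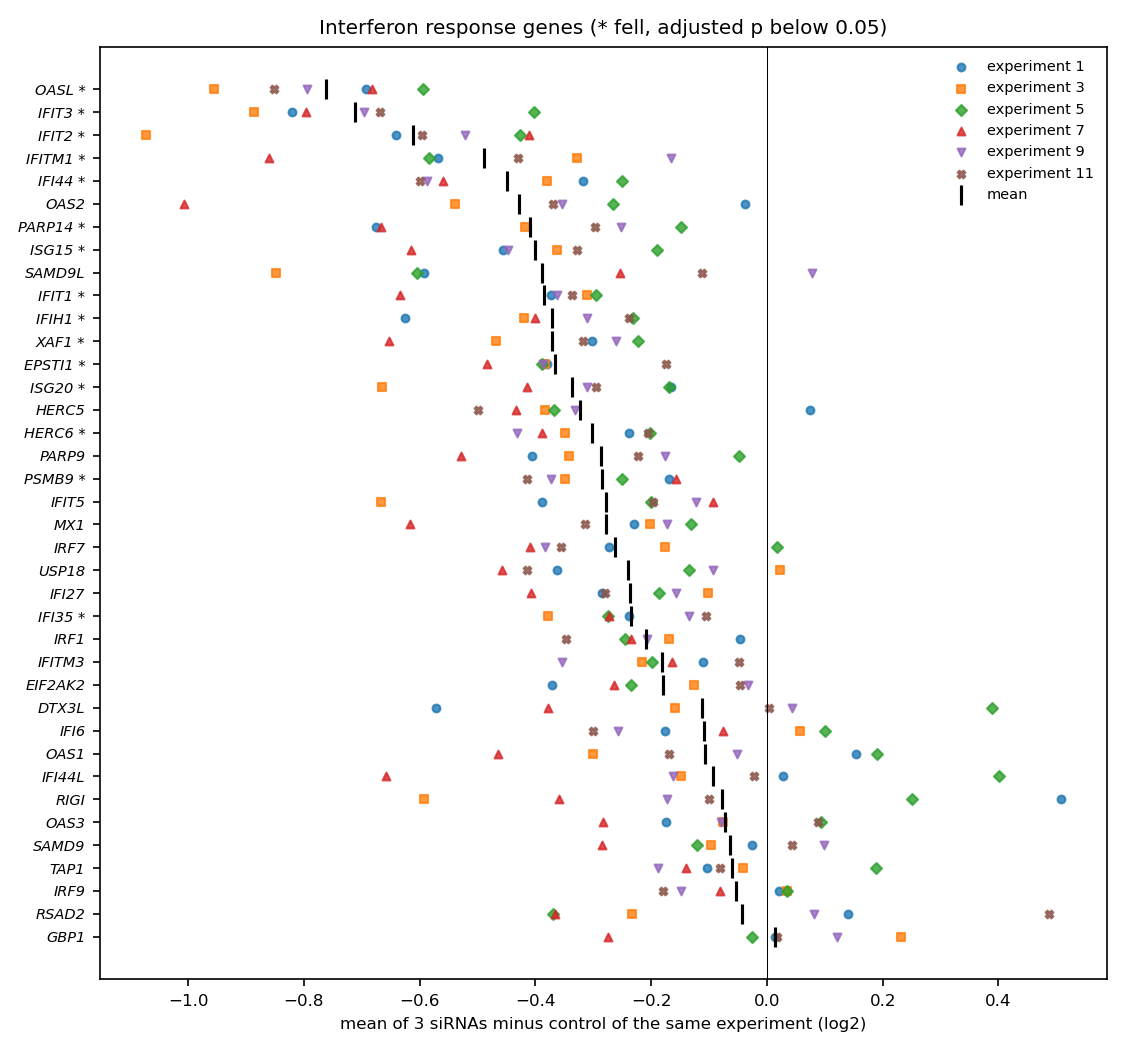
Difference between the mean of the 3 siRNAs and the control array of the same experiment (log2, horizontal axis) for the 38 measured interferon response genes (rows), with 1 symbol per experiment and a black bar for the mean. Asterisks mark the 15 genes that fell; 37 of the 38 bars lie left of 0, and GBP1 lies at 0.01.

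The promoters of 3 of the genes that fell are shown because they hold the interferon-stimulated response element pattern, GAAA and GAAA with 2 bases of any kind between them (1 of the 11 motifs, searched on both strands). It stood in 2.77% of 8874 promoters, in 12 of 174 promoters of genes that fell (6.90%) and in 3 of 242 of genes that rose (1.24%), and 9 of those 12 were members of the interferon list. Within the list the pattern did not mark the genes that passed: 9 of 13 promoters of members that fell and 13 of 20 of members that did not pass held it. Sequences are from RefSeq, build GRCh38.p14, all on the plus strand, for IFIT3 (chr10:89327747-89328046), IFIT1 (chr10:89392373-89392672) and ISG15 (chr1:1013247-1013546), with that pattern or its reverse complement in capitals.
IFIT3: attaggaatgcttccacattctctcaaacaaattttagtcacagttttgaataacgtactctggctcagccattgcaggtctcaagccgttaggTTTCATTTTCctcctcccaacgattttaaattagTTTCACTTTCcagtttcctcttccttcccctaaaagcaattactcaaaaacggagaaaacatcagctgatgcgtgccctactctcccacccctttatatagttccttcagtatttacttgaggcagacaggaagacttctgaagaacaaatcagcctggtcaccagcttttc
IFIT1: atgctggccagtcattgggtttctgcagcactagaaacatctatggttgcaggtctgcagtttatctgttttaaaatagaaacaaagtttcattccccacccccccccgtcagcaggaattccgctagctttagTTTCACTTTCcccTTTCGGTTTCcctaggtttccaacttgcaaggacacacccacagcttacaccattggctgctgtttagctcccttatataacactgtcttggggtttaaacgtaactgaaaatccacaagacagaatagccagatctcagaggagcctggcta
ISG15: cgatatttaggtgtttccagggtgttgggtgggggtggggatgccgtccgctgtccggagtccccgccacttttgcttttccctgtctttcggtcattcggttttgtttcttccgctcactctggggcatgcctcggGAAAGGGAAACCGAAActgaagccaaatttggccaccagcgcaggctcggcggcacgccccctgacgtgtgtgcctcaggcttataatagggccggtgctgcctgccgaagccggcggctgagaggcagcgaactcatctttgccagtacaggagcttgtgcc

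Of 24 measured genes of the Notch pathway 5 passed (20.8%, against 4.85% of all genes): RBPJ and LFNG rose and NOTCH3, HES4 and HES1 fell. The other 19 did not pass, and the list's median was -0.03. LFNG, a glycosyltransferase that modifies Notch receptors, changed by 0.34 ± 0.0768 (adjusted p = 0.0447), with 0.03 under exon 7. HES1, the classical target repressor, lay at 7.06 to 7.85 (median 7.76) on control and 6.23 to 7.60 (median 7.27) on siRNA arrays, and its change was -0.43 ± 0.0687 (adjusted p = 0.0143). The number of falls was 3 with any 1 experiment left out, and 1 or 2 genes rose.

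Among regulators of G1, 4 of 20 rose and 1 fell (25.0% called, against 4.85% of all genes), with a median of 0.08. CCND3 rose and its partner CDK6 fell. The CDK inhibitors CDKN1C and CDKN1A also rose, as did the transcription factor E2F2. CDKN1C was at 6.87 to 7.68 (median 7.34) on control and 7.04 to 8.60 (median 8.05) on siRNA arrays, with overlap. It rose by 0.59 ± 0.0985 (adjusted p = 0.0162), at 0.65, 0.10 and 1.01. CDKN1A, the inhibitor p21, rose by 0.40 ± 0.0818 (adjusted p = 0.0332), at 0.59, 0.49 and 0.11, and E2F2 by 0.34 ± 0.0585 (adjusted p = 0.0180), at -0.05, 0.52 and 0.53. CDKN1C lost its call without experiment 1, 3 or 5 (adjusted p from 0.0517 to 0.0595) and CDKN1A without experiment 1, 3, 5 or 9 (adjusted p from 0.0776 to 0.107). The rises of the list numbered 1, 2, 1, 5, 3 and 3 without experiments 1, 3, 5, 7, 9 and 11. Of 37 S phase genes 1 rose (GINS3, 0.27 ± 0.0529, adjusted p = 0.0275) and 0 fell. That share of rises, 2.7%, was near the 2.67% of all genes. Of 41 mitotic genes 0 passed, against 4.85% of all genes, and 3 had an unadjusted p below 0.05. GINS3 lost its call without experiment 1, 3, 5, 9 or 11 (adjusted p from 0.0711 to 0.0819).

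Mesenchymal markers and factors of epithelial-mesenchymal transition were higher in the pool, though not under every siRNA. Of 16 measured 6 rose (37.5%, against 2.67% of all genes) and 0 fell, with a median of 0.25. They were the collagen cross-linking enzyme LOX (0.63 ± 0.0861), the transcription factors SNAI2 (0.37 ± 0.0522) and TWIST1 (0.39 ± 0.0727), the matrix proteins SPARC (0.27 ± 0.050) and COL5A1 (0.22 ± 0.0475) and the actin-binding TAGLN (0.53 ± 0.115). LOX was above background on only 2 of 6 control arrays. The F test among siRNAs passed for all 6, and exon 7 gave the lowest value each time: -0.06 for SNAI2, -0.02 for SPARC, 0.02 for TWIST1, -0.16 for TAGLN, 0.07 for COL5A1 and 0.27 for LOX. Without the exon 1 siRNA 2 members rose and 1 fell, and SNAI2 (adjusted p = 0.0726) and SPARC (adjusted p = 0.411) did not pass. Without experiments 1, 3, 5, 7, 9 and 11 the rises numbered 2, 2, 2, 5, 3 and 3, and only LOX and SNAI2 kept their calls each time. Leaving out experiment 1, 3, 5, 7 or 11 took SPARC to an adjusted p from 0.0502 to 0.0730. Beside this, 0 of 8 fibroblast markers passed (median 0.10), and 2 had an unadjusted p below 0.05; their part in the result was not tested. Of 26 epithelial junction genes 1 rose and 2 fell: CLDN1, a tight junction claudin, rose by 0.72 ± 0.0661 (adjusted p = 0.00155, at 1.08, 0.76 and 0.31), while the desmosomal DSC2 and PKP1 had -0.35 ± 0.0697 and -0.32 ± 0.0671 and both lost their calls without experiment 1, 3, 5, 9 or 11 (adjusted p from 0.0520 to 0.103).

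In the AKT and MTOR pathway 1 of 30 measured genes rose and 4 fell (16.7% called, against 4.85% of all genes; median -0.03). SGK1, a kinase related to AKT that glucocorticoids induce, rose by 0.79 ± 0.0532 (adjusted p = 0.000964; 0.85 and 0.82 on other probes), from 9.63 to 10.2 (median 9.95) on control to 9.68 to 11.6 (median 10.9) on siRNA arrays. The overlap came from exon 7, where the change was 0.12 against 1.29 and 0.96. AKT1 was low under exon 7 (-0.97) and near control under exons 1 (0.04) and 9 (-0.11), which gave a pooled value of -0.35 ± 0.0579 (adjusted p = 0.0159) that was lost without experiment 3, 9 or 11 (adjusted p from 0.0530 to 0.0623). MLST8, a subunit of the MTOR complexes, was low under exon 1 (-0.79). Without the exon 7 siRNA AKT1 did not pass (adjusted p = 0.784), nor did MLST8 without exon 1 (adjusted p = 0.275). PHLPP1, a phosphatase of AKT, was even at -0.40, -0.36 and -0.40, with a pooled value of -0.39 ± 0.0867 (adjusted p = 0.0437). The falls of the list numbered 2, 1, 2, 3, 1 and 1 without experiments 1, 3, 5, 7, 9 and 11. Of 22 glucocorticoid-responsive genes 3 rose and 0 fell (median 0.15): SGK1, TSC22D3 (0.45 ± 0.0467, adjusted p = 0.00260) and ANGPTL4 (0.34 ± 0.0568, adjusted p = 0.0154). All cultures held hydrocortisone. ANGPTL4 lost its call without experiment 1, 3 or 5 (adjusted p from 0.0501 to 0.0623).

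Of 25 measured Wnt pathway genes 3 rose and 1 fell (16% called, against 4.85% of all genes; median 0.11), and without experiments 1, 3, 5, 7, 9 and 11 the rises numbered 1, 0, 1, 2, 1 and 1. The ligand WNT5A was not well above background on any control array (0 of 6) and was above it on 13 of 18 siRNA arrays. Its signal was at least 1.22-fold higher (adjusted p = 0.0177), and the fitted change was largest under exon 9. Without the exon 9 siRNA WNT5A did not pass (adjusted p = 0.270), nor did DKK3 without exon 1 (adjusted p = 0.584). The WNT5A call was also lost without experiment 3 (adjusted p = 0.0610) or 11 (adjusted p = 0.0566). The secreted inhibitors DKK3 (0.24 ± 0.0473) and DKK1 (0.25 ± 0.0548) rose, and the receptor FZD3 fell (-0.45 ± 0.0853, adjusted p = 0.0252), evenly at -0.46, -0.37 and -0.50. DKK3 lost its call without any 1 of the 6 experiments (adjusted p from 0.0570 to 0.0805), and FZD3 did without experiment 1, 3, 5, 9 or 11 (adjusted p from 0.0516 to 0.0818). Among 21 YAP and TEAD targets the matricellular CCN1 fell by 0.48 on the log2 scale (SE 0.0529, adjusted p = 0.00354), the kinase NUAK2 by 0.44 (SE 0.0775, adjusted p = 0.0184), and the phosphatase PTPN14 rose by 0.59 ± 0.0724 (adjusted p = 0.00528). NUAK2 lost its call without experiment 1, 3 or 11 (adjusted p from 0.0589 to 0.0630). In the fit without the experiment number neither CCN1 (adjusted p = 0.234) nor NUAK2 (adjusted p = 0.0717) passed. Among 31 hypoxia and glycolysis genes 4 rose and 1 fell: the oxygen sensor EGLN1 (0.30), ANGPTL4, NDRG1 (0.42) and BNIP3L (0.25) against ENO2 (-0.36). Without experiment 3 none of the 5 passed (0 rose and 0 fell).

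The remaining lists held few calls, to be read against the 2.67% of all genes that rose and the 2.18% that fell. Of 35 ubiquitin ligase receptors and HECT ligases WSB1 and KLHL9 (0.52 ± 0.0796, adjusted p = 0.0111) rose, and WWP1 and SOCS2 fell. The ligase WWP1 was at 10.3 to 10.5 (median 10.4) on control and 8.65 to 10.4 (median 10.0) on siRNA arrays, and its value of -0.60 ± 0.0670 (adjusted p = 0.00354) came mainly from exon 1 (-1.32, against -0.21 and -0.28). The basal markers CAV2 and EGFR rose (2 of 10 measured) and the luminal factor ELF3 fell (1 of 17). CAV2 moved mainly under exon 1 (0.62, 0.07 and 0.26) and EGFR mainly under exon 7 (0.05, 0.60 and 0.21). Without those siRNAs neither passed (adjusted p = 0.162 and 0.272), nor did ELF3 without exon 1 (adjusted p = 0.165). ELF3 lost its call without any 1 of the 6 experiments (adjusted p from 0.0634 to 0.0962), and EGFR lost it without experiment 1, 3, 9 or 11 (adjusted p from 0.0628 to 0.0750). MMP9 (0.63 ± 0.0926, above background on 1 of 6 control and 8 of 18 siRNA arrays) and the protease inhibitor SERPINB5 (0.33 ± 0.0483) rose among 16 matrix metalloproteinases and inhibitors, both mainly under exon 1, and without it neither passed (adjusted p = 0.126 and 0.242). Of 37 autophagy and lysosome genes 3 rose (ULK1, ATG12 and CTSD, of which CTSD lost its call without any 1 experiment, at an adjusted p from 0.0670 to 0.137, ATG12 without experiment 1, 3, 5, 9 or 11, from 0.0525 to 0.0719, and ULK1 without experiment 3 or 5, at 0.0584 and 0.0508). Of 23 p53 targets 2 rose (8.70%, ERCC5 and CDKN1A). Of 25 ciliary traffic genes 1 rose (4.00%, LZTFL1), a share near that of all genes. CD14, a receptor for lipopolysaccharide that is also an immune marker, fell by 0.61 on the log2 scale (SE 0.0577, adjusted p = 0.00176; -0.80 on its second probe), while PTPRC, CD3D, CD3E and LYZ were above background on 0 arrays and MS4A1 on 4.

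Nothing passed among the genes around GNG12-AS1 or in several other lists. Over all genes 4.85% passed, and in the smaller of these lists a count of 0 is near that share. GNG12 was at 7.81 to 8.33 (median 8.26) on control and 7.82 to 8.72 (median 8.15) on siRNA arrays, a difference of 0.01 ± 0.0535 (adjusted p = 0.969). The Wnt secretion factor WLS was at 9.52 to 10.0 (median 9.75) and 9.48 to 10.2 (median 9.98), a difference of 0.14 ± 0.0709 (adjusted p = 0.308). WLS passed when the exon 7 siRNA was left out (adjusted p = 0.0402). Among all 11 measured neighbours limma called 0 (0 at an unadjusted p below 0.05), with changes from -0.14 to 0.14. It also called 0 of 10 genes of the RNA interference machinery (2 at an unadjusted p below 0.05), 0 of 52 respiratory chain subunits (4), 0 of 37 splicing factors (3), 0 of 23 heat shock genes (0), 0 of 23 NRF2 genes (1) and 0 of 18 cholesterol synthesis genes (2). Of 61 cytosolic ribosomal proteins 1 fell (RPL28, -0.28 ± 0.0529, adjusted p = 0.0236), and of 33 small nuclear and nucleolar RNAs 1 did (SNORA28, -0.40 ± 0.0771, adjusted p = 0.0250). RPL28 lost its call without experiment 1, 3, 7, 9 or 11 (adjusted p from 0.0514 to 0.0835) and SNORA28 without experiment 1, 5, 7, 9 or 11 (adjusted p from 0.0572 to 0.0795). A p above the threshold with 6 differences does not show that a gene was unchanged.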

How the data were processed

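Total RNA of 24 HB2 cultures was hybridized to Illumina bead arrays, and the experiment number and siRNA of each array were taken from the labels. The deposited values are log2 bead signals with no normalization between arrays; a second deposited table holds the authors' normalized log2 values, whose arrays share 1 distribution. No source used here names the tools that made either table. From the first table, background was corrected with normexp and an offset of 16 (limma 3.58.1, R 4.3.3), using 437 olfactory receptor probes in place of negative controls, followed by quantile normalization. Probes above background (p below 0.05 against those probes) on at least 6 arrays were kept, 19395 of 47231, of which 14549 had a gene symbol. Precision is limited by the number of arrays.

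The pooled test was limma's lmFit and eBayes on the 6 differences per gene, with Benjamini-Hochberg adjustment over 11029 genes and a threshold of 0.05. Differences among the siRNAs used a limma F test on the 18 siRNA arrays with the experiment number as a block, and each siRNA against control used a 24-array fit with the same block. The labels call the 6 arrays of a group biological replicates. Pairing comes from the experiment numbers in the titles: deviations from group means correlated from 0.0328 to 0.556 (median 0.238) over 36 pairs of arrays within an experiment, and had a median of -0.046 over 180 pairs across experiments and groups. The first and last 12 columns of the table formed 2 sets that cross the experiments, and no source used here says what they stand for. Within an experiment the median correlation was 0.372 over 12 pairs in the same set and 0.16 over 24 pairs in different sets. Paired differences correlated from 0.255 to 0.399 when their control arrays shared a set, and from 0.0402 to 0.26 otherwise. Pairing by experiment does not remove a difference between the sets. With the column set as a covariate the pooled fit called 657 genes.

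Named genes were the 12 largest rises and falls with 6 differences of 1 sign, the 8 rises and up to 8 falls without overlap with the largest smallest change, the 5 with the smallest F-test p, up to 3 members per list with a call, and GNG12, DIRAS3 and WLS. Other called list members are named to complete a count, after their values were seen. The pooling rule and the 39 gene lists (954 of 1219 genes measured) were chosen with earlier results of these data known. Scripts were tested on simulated data. Alternatives covered background, normalization, filters, probe choice, array weights, the block, column sets, a minimum fold change, and leaving out each experiment or siRNA.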

Additional observations from a re-analysis of the deposited data

Results flagged for a closer look

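The 3 siRNAs differed from each other for 55 of the 81 named genes that were called (F test, adjusted p below 0.05). The same test passed for 50.3% of all called genes and for 22.8% of all genes tested. Some genes were named because their F-test p was smallest, which adds to the count of 55. For these 55 genes the pooled value covers unequal changes. The highest minus the lowest siRNA change, on the log2 scale, was above 1 for JOSD1 (1.64), FGF2 (1.62), SCML1 (1.43), SLCO2A1 (1.31), KATNAL1 (1.2), GFM1 (1.19), SGK1 (1.18), TP53BP2 (1.14), WWP1 (1.11), WNT5A (1.07), IRX3 (1.06), MMP9 (1.06) and AKT1 (1.01). It lay between 0.5 and 1 for CSRNP1 (0.947), CDKN1C (0.911), SFTA1P (0.807), CLDN1 (0.769), SNAI2 (0.728), LOX (0.713), VPS9D1-AS1 (0.711), MLST8 (0.699), IL6 (0.695), BAMBI (0.679), CDK6 (0.674), SERPINB5 (0.64), PRSS22 (0.62), RAPGEF1 (0.612), IFIT2 (0.602), SNORA28 (0.595), ENO2 (0.594), SPARC (0.579), EGFR (0.557), CAV2 (0.549), DKK3 (0.549) and NUAK2 (0.515). Smaller ranges were found for CD14 (0.498), IFI44 (0.488), CDKN1A (0.481), SPRY4 (0.473), DNMT3B (0.471), JARID2 (0.454), TSC22D3 (0.405), CCN1 (0.371), ANGPTL4 (0.368), KLC1 (0.366), CTSC (0.364), RPL28 (0.35), WSB1 (0.336), HES4 (0.315), CTSD (0.303), CBX6 (0.294), CCL5 (0.286), ULK1 (0.257), EGLN1 (0.254) and CCND3 (0.253).

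In 166 groups of 6 values (control levels or paired differences) 13 had an experiment standing apart by Dixon's criterion, and chance gives about 1 in 20 groups. In experiment 3 the control level was high for KATNAL1 (7.64, the others 6.26 to 6.68), IFIT3 (11.2, the others 9.43 to 9.94), IFIT2 (12.1, the others at most 11.3) and DKK3 (11.1, the others 10.4 to 10.7). The paired difference of IFIT2 was -1.07 in experiment 3 and -0.641 to -0.411 elsewhere. In experiment 9 the control level of ELF3 was 9.40 (the others 10.2 to 10.6) and that of SPRY4 6.72 (6.23 to 6.32). In experiment 7 that of GNG12 was 7.81 (8.15 to 8.33) and that of GFM1 10.3 (10.4 to 10.5), and in experiment 1 that of CTSC was 10.6 (10.3 to 10.4). Paired differences stood apart for CAV2 in experiment 1 (0.498, the others 0.245 to 0.321), CBX6 in experiment 1 (-0.0818, the others -0.48 to -0.352) and EGLN1 in experiment 5 (0.435, the others 0.241 to 0.3).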

How the results depend on the processing

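The pooled fit with experiment pairing called 535 genes, and 2.67% of the genes tested rose and 2.18% fell. With no replicate block it called 380 (314 shared with the 535; falls 1.28%), with the block in 1 fit over 24 arrays 998 (rises 4.9%, falls 4.15%), and with a random effect of experiment 798 (rises 4.07%). The block together with the column set, added after seeing the data, gave 1236 (5.99% and 5.21%). No background correction gave 812 genes and the authors' normalized values 809, each with falls of 3.41%. Median scaling gave falls of 1.34%. No filter on dim probes gave 346 genes (1.02% and 0.703% of a larger number tested), and probes detected on all 24 arrays gave 4.51% and 4.22%. A minimum fold change of 1.2 left 33 genes (0.245% and 0.0544%). With 1 experiment left out the counts ran from 179 to 497 (rises 1.12% to 2.41%, falls 0.508% to 2.09%). Without the exon 1 siRNA there were 348 (1.74% and 1.41%) and without exon 7 866 (4.23% and 3.63%). The first column set alone, with 3 arrays per group and no block, gave 72 (0.508% and 0.145%), the last 41 (0.363% and 0.00907%). Differences among siRNAs numbered 1388 with no block and 1488 to 2404 with 1 experiment left out. Against control the exon 1 siRNA gave 1107 and 1339 to 2006, exon 7 212 and 268 to 558, and exon 9 400 and 621 to 968. Rises were 55.1% of the calls in the pooled fit, 81.8% with the minimum fold change, 68.7% without experiment 3, 67.2% without experiment 11, and 77.8% and 97.6% in the column sets. Of 81 named genes that were called, 34 lost the call with 1 experiment left out and 69 under some setting. Direction turned for 2: JOSD1 without exon 7 (0.052) and SLCO2A1 without exon 1 (0.14). The causes were not tested. Dim genes are limited by background: 13 of the rises had no control array above it.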

Other observations

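Further genes whose 18 siRNA arrays all lay above the 6 control arrays were looked up after their values were seen. ELMO1, which works with DOCK proteins to activate the GTPase RAC, lay at 6.25 to 6.62 on control and 6.75 to 7.68 on siRNA arrays, a rise of 0.78 ± 0.0710 (SE, n = 6 experiments; limma adjusted p = 0.00155). G3BP2, a stress granule protein, was at 10.8 to 10.98 on control and 11.2 to 11.8 on siRNA arrays. G3BP2 rose by 0.60 ± 0.0569 (adjusted p = 0.00176), at 0.62, 0.51 and 0.66 under the exon 1, 7 and 9 siRNAs. SLC36A1, an amino acid transporter of lysosomes, rose by 0.80 ± 0.123 (adjusted p = 0.0120), and the vesicle fusion protein VAMP7 by 0.40 ± 0.0592 (adjusted p = 0.0101). DYNLT3, a dynein light chain, rose by 0.57 ± 0.0493 (adjusted p = 0.00119).

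Nuclear genes with the same pattern were BANF1, which bridges DNA to the nuclear envelope (0.54 ± 0.0775, adjusted p = 0.00970), the cohesin subunit STAG2 (0.39 ± 0.0787, adjusted p = 0.0303) and TBP, the TATA-binding protein. TBP lay at 8.67 to 8.98 on control and 9.04 to 9.42 on siRNA arrays. It rose by 0.35 ± 0.0604 (adjusted p = 0.0176), and the 3 siRNAs gave 0.36, 0.35 and 0.34.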
